A study of Mus musculus with 16 samples.

Results

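The comparison of Sirt2-/- with WT CD4+ tumor-infiltrating lymphocytes (TILs) was examined in the 6 CD4 libraries in which at least 15000 genes had a count, 3 from Sirt2-/- mice (replicates 1, 2 and 3) and 3 from WT mice (replicates 2, 3 and 4), of 8 CD4 libraries and 16 libraries in all. All mice carried a subcutaneous B16F10 melanoma, a C57BL/6-derived mouse tumor line. The Sirt2-/- mice carried a germline Sirt2 deletion (B6.129-Sirt2tm1.1Fwa/J), so that every host cell type lacked the intact gene while the tumor line did not carry the deletion, and the WT mice were C57BL/6J. The sources used here state that T cells were taken from digested tumors with CD3ε beads and that both sexes were used, matched for age and sex, and give n = 4 per group, but not how CD4+ and CD8+ cells were parted nor whether each of the n is 1 mouse. The experiment asked how the loss of Sirt2 alters the programs downstream of the T cell receptor (TCR) in T cells of the tumor.

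Total counts were 40667337 to 44972097 in the Sirt2-/- libraries and 41744718 to 44489344 in the WT libraries, and 19159 to 20310 and 17730 to 19508 genes had a count. Neither measure separated the genotypes (two-sided exact permutation tests, p = 1 and p = 0.2, where 3 against 3 libraries cannot go below 0.1). The libraries left out, Sirt2-/- replicate 4 and WT replicate 1, held 8169 and 12587 genes with a count. Levels are given as CPM, counts for each 1000000 counts of the library, scaled by TMM, the edgeR normalization. The labelled cell type was checked against its markers. Cd4 stood at 439 to 621 CPM in the 6 libraries, against 0 to 4.94 CPM of the total in the 8 CD8 libraries, and Cd8a at 2.89 to 33.5 CPM. Foxp3, the defining factor of regulatory T cells (Treg cells) and X-linked, ranged from 311 to 674 CPM in Sirt2-/- and from 361 to 675 CPM in WT libraries. Xist, the X-inactivation RNA, was at 67.5 CPM in WT replicate 2 and at 562 to 861 CPM in the other 5 libraries. Replicate 1 of Sirt2-/- and replicate 4 of WT were the lowest of their groups in Foxp3, Ikzf2 and Ctla4. In bulk RNA of this kind, fewer cells of a type and less RNA per cell cannot be told apart.

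SIRT2 is an NAD-dependent deacetylase found mainly in the cytoplasm, where alpha-tubulin and several metabolic enzymes are among its substrates. TCR engagement activates the kinases LCK and ZAP70, which act through LAT and PLCγ1 on calcium and NFAT, on ERK and on NF-κB, and so switch on immediate early genes, cytokines and proliferation. CD4+ T cells within tumors are a mixture of Treg cells, effector cells and a smaller group that keeps genes of naive or memory cells.

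Of 16029 genes tested with edgeR's quasi-likelihood test (the main fit), 5 passed an adjusted p of 0.05 (0.0312% of the genes). Sirt2 fell, and Fbxo17, Igfbp4, Cd163l1 and Ccl2 rose in Sirt2-/- cells. Sirt2, Fbxo17 and Igfbp4 were the genes named for this comparison when it was chosen, with earlier results of these data known, so their calls are a description. The groups did not overlap for any of the 5 genes.

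The Sirt2 counts were 553, 433 and 469 in Sirt2-/- replicates 1 to 3, against 1886, 1825 and 1681 in WT replicates 2 to 4. That is 11.1 ± 1.11 against 42.9 ± 2.69 CPM (SD, n = 3 each). The log2 fold change was -1.95 ± 0.18 (SE), with an adjusted p of 0.0016 in edgeR's quasi-likelihood test. The Sirt2-/- level was 0.260 of the WT level, and the count table does not show which exons the remaining reads came from. In the libraries left out, Sirt2-/- replicate 4 had a Sirt2 count of 0 and WT replicate 1 a count of 2272.

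Sirt2 lies on chromosome 7 at 28766735 to 28788661 (GRCm38), and the genes around it were examined as a group. The strain name B6.129 records the 129 origin of the allele, and effects of the deletion and of the chromosome around it cannot be told apart in this design. Fbxo17, an F-box protein of SCF ubiquitin ligases whose gene ends 28.6 kb before Sirt2, had counts of 1693, 1032 and 1037 in Sirt2-/- against 108, 201 and 95 in WT libraries. Its level was 28.7 ± 8.04 against 3.18 ± 1.22 CPM (SD, n = 3 each), and all Sirt2-/- libraries were above all WT libraries. The log2 fold change was 3.17 ± 0.32, with an adjusted p of 0.0021 in edgeR's quasi-likelihood test. WT replicate 1, which was left out, had a Fbxo17 count of 570.

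**Figure D1:**
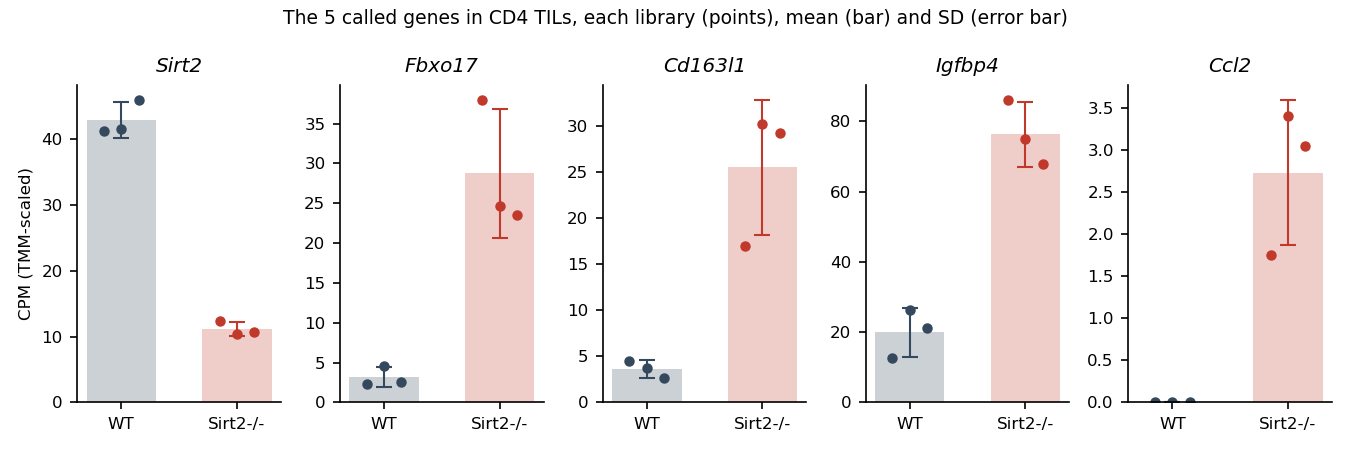
CPM of the 5 genes that passed the test, in each WT (grey) and Sirt2-/- (red) CD4 library, with the mean as a bar and the SD as an error bar. Sirt2 lies at 10.4 to 12.4 CPM in Sirt2-/- and 41.2 to 46.0 CPM in WT libraries, and the other 4 genes are higher in every Sirt2-/- library.

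Fbxo27, a neighboring F-box gene 67.4 kb away, had counts of 192, 143 and 179 against 40, 14 and 14. The log2 fold change was 2.89 ± 0.60, but the adjusted p was 0.24 by edgeR's quasi-likelihood test. The libraries left out went the other way, with a Fbxo27 count of 231 in WT replicate 1 and 0 in Sirt2-/- replicate 4. Over all 8 CD4 libraries its log2 fold change was 0.38. Within 1 Mb of Sirt2, 56 genes were tested, of which 1 besides Sirt2 was called. At an unadjusted p under 0.05, which 2.61% of all genes passed as higher and 1.73% as lower, 4 of the 56 neighbors were higher and 7 were lower. The others that were higher were Gmfg (0.30 ± 0.12 on the log2 scale) and the zinc finger gene Zfp30 (1.35 ± 0.59). Those that were lower were the zinc finger genes Zfp974 (-1.71 ± 0.47) and Zfp607a (-0.62 ± 0.21), the nucleolar methyltransferase gene Fbl (-0.73 ± 0.24), the mitochondrial ribosomal gene Mrps12 (-0.96 ± 0.40), Fam98c (-0.57 ± 0.21), and 2 genes of lymphocyte and myeloid signaling, Map4k1 (-0.28 ± 0.12) and Rasgrp4 (-1.33 ± 0.57). Without WT replicate 4, Fbl was at -0.35 and Mrps12 at -0.45. Zinc finger genes of this cluster have near-identical copies, so their counts are uncertain. Zfp974 was at 2.04, 4.66 and 1.11 CPM in Sirt2-/- and at 9.69, 8.37 and 7.47 CPM in WT libraries. Nfkbib, an inhibitor of NF-κB whose gene overlaps Sirt2 at its lower coordinates, was at 30.5 ± 2.70 against 29.1 ± 3.79 CPM (SD, n = 3 each), a difference within the spread. The median log2 fold change of the 56 neighbors was -0.12, against -0.00 for all genes tested, and in the wider window of 10 Mb 11 of 268 genes were higher and 17 lower at that level.

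**Figure D2:**
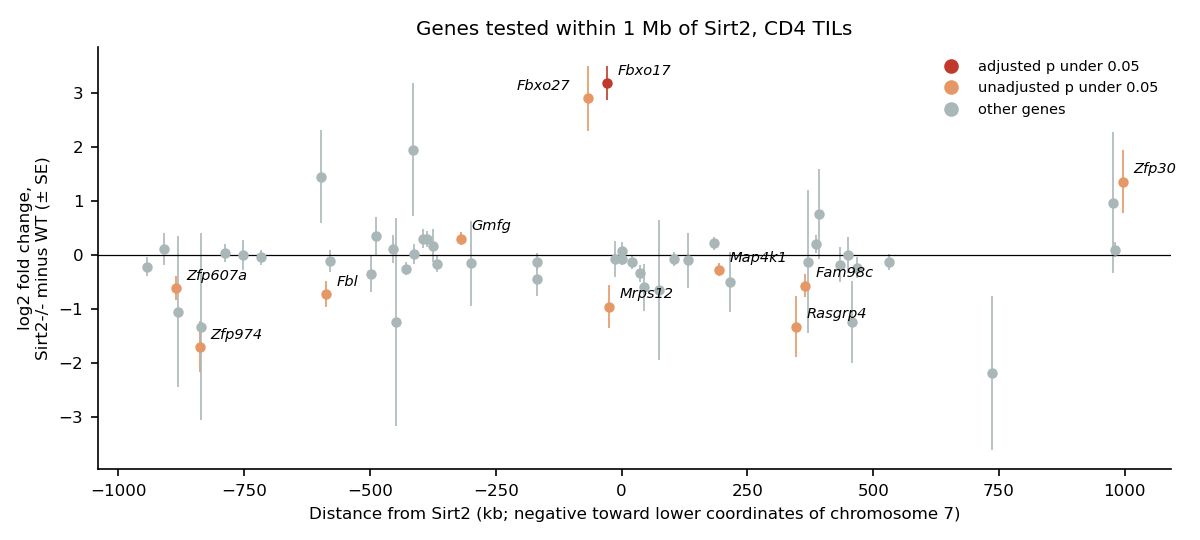
Log2 fold change (Sirt2-/- minus WT, ± SE) of the 56 genes tested within 1 Mb of Sirt2, against their distance from Sirt2 in kb. Fbxo17 (3.17) and Fbxo27 (2.89) stand above all other neighbors, and Zfp974 (-1.71) is the lowest of those with an unadjusted p under 0.05.

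Igfbp4, which encodes a binding protein of insulin-like growth factors and is known as a transcript of naive T cells, was the called gene with the highest counts. It had 3841, 3135 and 2993 counts in Sirt2-/- libraries against 574, 1157 and 774 in WT libraries. These were 86.2, 75.0 and 67.9 CPM against 12.5, 26.3 and 21.2 CPM, with a log2 fold change of 1.93 ± 0.23 and an adjusted p of 0.0092 in edgeR's quasi-likelihood test. Without WT replicate 4 the log2 fold change was 1.98 but the gene was no longer called (adjusted p = 0.17 by edgeR's quasi-likelihood test).

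Igfbp4 was the 1 called gene among 24 genes of naive, memory and stem-like T cells. Of the 24, 20 were higher in Sirt2-/- cells and 8 had an unadjusted p under 0.05, all higher, with a median log2 fold change of 0.48. Among them, Trib2 was at 199, 165 and 155 CPM against 84.5, 122 and 126 CPM, a log2 fold change of 0.64 ± 0.17. Satb1, a chromatin organizer of T cells, was at 774, 508 and 467 CPM against 241, 342 and 422 CPM (0.80 ± 0.22). Txk, a Tec-family kinase, was at 83.7, 80.5 and 74.9 CPM against 46.4, 54.9 and 53.7 CPM (0.62 ± 0.13). None of these was called in the main edgeR fit. DESeq2 called Txk and Satb1, and the edgeR fit with no filter on low counts Satb1 and Trib2. Tcf7, the transcription factor of stem-like T cells, was at 1304, 811 and 684 CPM against 575, 729 and 607 CPM (0.55 ± 0.21, and 0.24 without Sirt2-/- replicate 1). Replicate 1 of Sirt2-/- was the highest of all libraries in Tcf7, and the groups overlapped.

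The summed CPM of the naive list showed the same single library. It was 8232 in Sirt2-/- replicate 1 and 4935 and 4441 in the other 2, against 3575 to 4586 in WT libraries. In the same replicate 1 the summed CPM of 19 Treg genes was 2288, against 4319 and 4594 in the other Sirt2-/- libraries and 3144 to 4342 in WT libraries. The part of this difference in makeup in the naive genes was not tested. The number of naive genes with an unadjusted p under 0.05 went from 8 to 4 without Sirt2-/- replicate 1, to 13 without Sirt2-/- replicate 3, and to 4 and 5 without WT replicates 2 and 4. The median log2 fold change went from 0.48 to 0.09 without Sirt2-/- replicate 1 and was 0.35 to 0.67 without any other library. Of 17 quiescence genes, 14 were higher and 3 had an unadjusted p under 0.05, with a median of 0.25. These were the antiproliferative genes Btg2 (0.50 ± 0.14) and Btg1 (0.41 ± 0.14) and the Schlafen gene Slfn2 (0.38 ± 0.13). Of the 19 Treg genes, Nrp1 alone had an unadjusted p under 0.05. It was lower, at 95.5, 145 and 153 CPM in Sirt2-/- against 215, 203 and 183 CPM in WT libraries (-0.61 ± 0.17, not called), with no overlap. The median of the list was -0.07.

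The list with the most members at an unadjusted p under 0.05 was that of the interferon-stimulated genes. Interferons signal through JAK kinases, and the genes they induce encode antiviral proteins, guanylate-binding proteins (GBPs) and immunity-related GTPases. Many of these genes carry an interferon-stimulated response element, whose core is a pair of GAAA repeats 2 bases apart. The sequences of 4 promoters are shown to let this core be seen in members of these lists with an unadjusted p under 0.05. Each line gives the 150 bases before the annotated start, 5′ to 3′ on the strand of the gene, from RefSeq on GRCm38.p6, with matches to GAAANNGAAA or to its reverse complement TTTCNNTTTC in capitals.
Rsad2 (chr12:26456453-26456602, minus strand): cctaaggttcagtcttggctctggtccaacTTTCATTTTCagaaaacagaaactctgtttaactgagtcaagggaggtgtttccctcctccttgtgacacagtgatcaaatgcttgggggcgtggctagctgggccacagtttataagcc
Ifit1 (chr19:34640739-34640888, plus strand): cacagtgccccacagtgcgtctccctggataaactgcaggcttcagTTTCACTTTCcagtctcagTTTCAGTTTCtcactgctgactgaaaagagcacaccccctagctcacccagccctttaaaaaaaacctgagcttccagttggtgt
Oas3 (chr5:120777660-120777809, minus strand): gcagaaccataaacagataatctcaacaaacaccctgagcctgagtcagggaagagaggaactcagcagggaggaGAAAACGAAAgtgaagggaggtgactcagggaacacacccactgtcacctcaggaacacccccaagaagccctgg
Tgtp1 (chr11:48992247-48992396, minus strand): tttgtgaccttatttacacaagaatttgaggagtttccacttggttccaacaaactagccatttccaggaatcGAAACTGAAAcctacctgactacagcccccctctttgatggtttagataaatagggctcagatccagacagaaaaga
The motif lay in the 250 bases before the start of 10 of the 26 genes of the interferon list that matched the promoter table and of 9 of 10 genes of the GTPase list, against 3.46% of all 27025 genes with a promoter there. A match describes the letters only. Of the 23 members with an unadjusted p under 0.05 and a promoter in the table, 14 held the motif, and of the 13 other members 5 did. None of the 4 called genes with a promoter in the table held it.

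Of 37 tested genes of the interferon list, 34 were higher in Sirt2-/- cells and 23 had an unadjusted p under 0.05, all higher, and of 17 GBP and GTPase genes all 17 were higher and 11 had an unadjusted p under 0.05. None passed the adjustment over all genes in the main edgeR fit. Of the edgeR fits that left out 1 library, only that without WT replicate 4 called members, namely Oas2, Oasl2, Ifit3 and Ifit1. The edgeR fit with no filter on low counts also called members, among them Ifit3b and Iigp1. DESeq2 called Ifit3b, Ifit3, Rsad2, Rtp4, Zbp1, Iigp1, Gbp6 and Tgtp1 of these lists higher, and limma-voom Ifit3b, Rsad2, Oas2, Ifit1, Rtp4 and Gbp6. The groups did not overlap for 21 and 9 of these genes, where 5.83% of all genes were wholly higher and 5.13% wholly lower. The median log2 fold changes were 0.44 and 0.51. The summed CPM of the interferon list was 8833, 7019 and 6653 in Sirt2-/- libraries against 5233, 4790 and 6005 in WT libraries. That of the GTPases was 8421, 5483 and 5133 against 3948, 4208 and 5015. In both sums all Sirt2-/- libraries lay above all WT libraries, with Sirt2-/- replicate 1 the highest. Without that replicate, 20 and 9 members had an unadjusted p under 0.05, the medians were 0.39 and 0.27, and the lowest count for the interferon list was 15, without WT replicate 3.

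Of the interferon-induced tetratricopeptide genes, which bind viral RNA, Ifit3b and Ifit3 had the largest log2 fold changes of both lists. Ifit3b was at 215, 155 and 124 CPM against 68.2, 60.4 and 91.0 CPM, a log2 fold change of 1.17 ± 0.20 with an adjusted p of 0.11 by edgeR's quasi-likelihood test. Ifit3, a near-identical copy with which it can share reads, was at 405, 312 and 270 CPM against 147, 107 and 230 CPM (1.03 ± 0.25), and Ifit1 at 258, 262 and 201 CPM against 132, 107 and 191 CPM (0.75 ± 0.19). In each of these the lowest Sirt2-/- library lay above the highest WT library. Of the enzymes, Rsad2, which encodes viperin, was at 43.8, 51.7 and 53.6 CPM against 26.6, 22.8 and 33.4 CPM (0.85 ± 0.18). The oligoadenylate synthetase genes Oas2 (0.98 ± 0.30), Oas3 (0.60 ± 0.16) and Oasl2 (0.77 ± 0.23) were higher without overlap. Samhd1, a dNTP hydrolase and the member with the highest CPM, was at 2938, 2050 and 1947 CPM against 1711, 1640 and 1752 CPM (0.44 ± 0.15).

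Among sensors and regulators, Zbp1, a sensor of Z-form nucleic acid, was at 519, 340 and 327 CPM against 232, 199 and 261 CPM (0.78 ± 0.18). Rtp4 (0.70 ± 0.14), the transcription factor gene Irf7 (0.62 ± 0.18) and the surface antigen gene Ly6a (0.63 ± 0.16) were also higher without overlap. Of the GTPases, Gbp6 was at 116, 113 and 102 CPM against 73.6, 68.0 and 61.0 CPM (0.71 ± 0.13, adjusted p = 0.17 by edgeR's quasi-likelihood test), a value that is uncertain because Gbp6 and Gbp10 are near-identical. Iigp1 was at 708, 491 and 424 CPM against 288, 312 and 313 CPM (0.83 ± 0.17), and Gbp7 at 906, 691 and 682 CPM against 579, 554 and 585 CPM (0.41 ± 0.13). Tgtp1 (0.99 ± 0.27) and Tgtp2 (0.84 ± 0.25), near-identical copies of each other, were highest in Sirt2-/- replicate 1 at 232 and 479 CPM. Gbp2, the member with the highest CPM, was at 1463, 998 and 859 CPM against 512, 585 and 911 CPM (0.73 ± 0.24), with overlap.

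**Figure D3:**
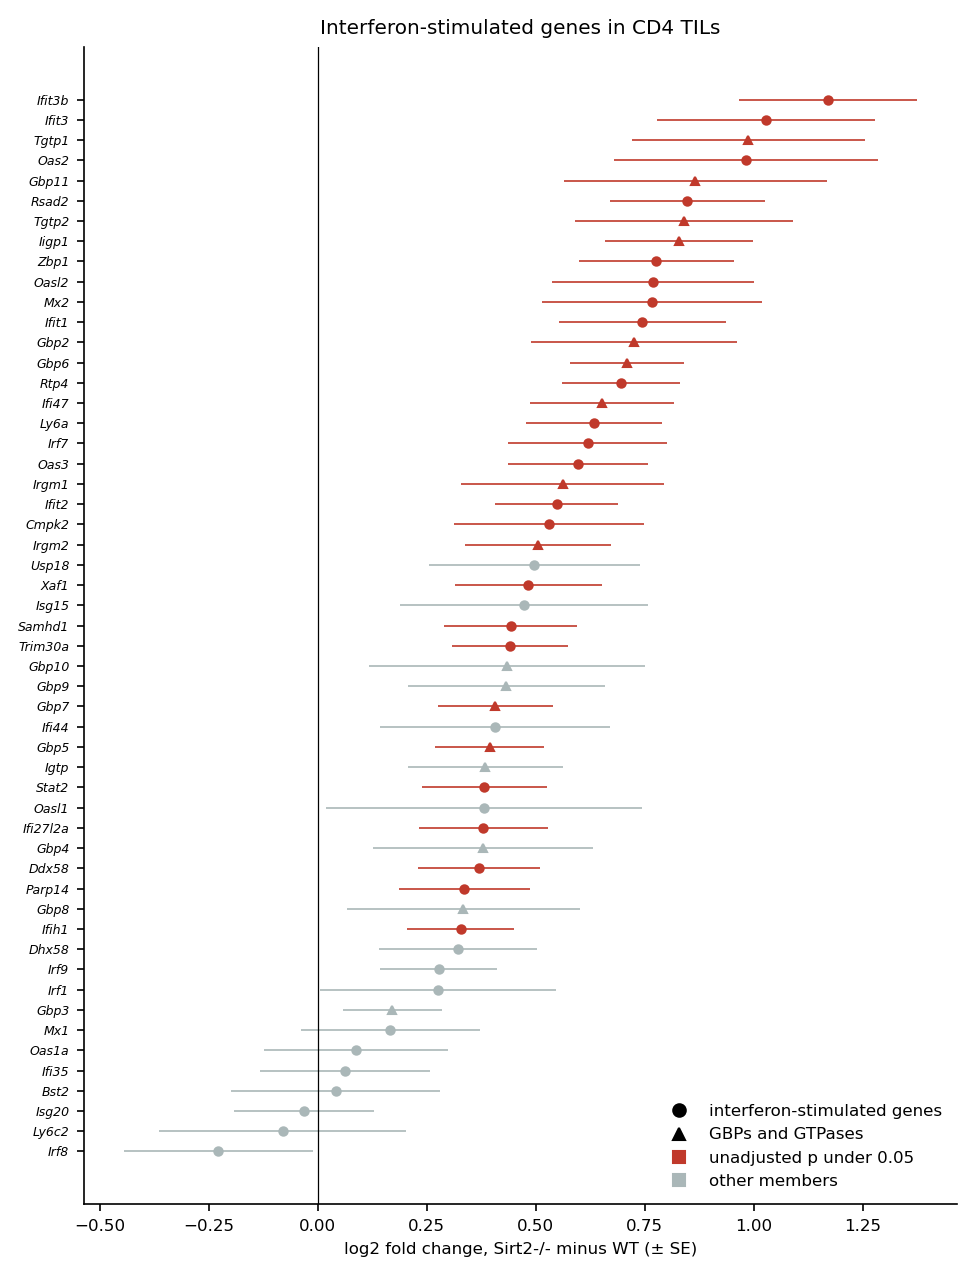
Log2 fold change (Sirt2-/- minus WT, ± SE) of interferon-stimulated genes (circles) and GBP and GTPase genes (triangles) tested in CD4 TILs, with those at an unadjusted p under 0.05 in red. All but 3 points lie above 0, with Ifit3b the highest at 1.17. A member of the list is not plotted.

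The Ifi200 genes on chromosome 1, which encode DNA-binding interferon-inducible proteins, and the Schlafen genes were added after their values had been seen. Of 12 tested Ifi200 genes, 10 were higher and 7 had an unadjusted p under 0.05. Ifi204 was at 13.5, 29.1 and 32.8 CPM against 6.92, 7.37 and 6.46 CPM (1.86 ± 0.30, adjusted p = 0.089 by edgeR's quasi-likelihood test). Ifi208 (0.82 ± 0.15), Ifi206 (0.76 ± 0.15), Ifi209 (0.58 ± 0.13), Ifi213 (0.85 ± 0.23), Ifi214 (0.64 ± 0.15) and Mndal (0.29 ± 0.13) were also higher without overlap, while Aim2, the inflammasome sensor of the family, was at 52.4 ± 11.0 against 56.7 ± 10.6 CPM (SD, n = 3 each). Of 10 Schlafen genes 9 were higher and 4 had an unadjusted p under 0.05, among them Slfn8 (0.53 ± 0.13) and Slfn5 (0.63 ± 0.18). Members of these families are near-identical in part, so their single values are uncertain. Interferon gamma itself, Ifng, was at 1.66, 3.44 and 2.63 CPM against 4.15, 1.98 and 2.22 CPM (-0.11 ± 0.52), with overlap. Its chemokine target Cxcl10 was at 23.5, 20.1 and 18.3 CPM against 10.8, 11.8 and 14.9 CPM (0.72 ± 0.22, not called). The class I antigen presentation genes, many of them interferon-inducible too, had a median of 0.02, with 11 of 19 higher and none of those at an unadjusted p under 0.05.

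Cd163l1, a scavenger receptor gene known from γδ T cells, had counts of 759, 1266 and 1289 in Sirt2-/- libraries against 206, 163 and 95 in WT libraries. These were 17.0, 30.3 and 29.2 CPM against 4.50, 3.71 and 2.60 CPM, with a log2 fold change of 2.82 ± 0.30 and an adjusted p of 0.0032 in edgeR's quasi-likelihood test. All 8 tested members of the list of γδ and NKT cell genes were higher and 5 had an unadjusted p under 0.05, with a median of 1.80. The summed CPM of the list was 70.5, 111 and 116 in Sirt2-/- libraries against 36.2, 25.5 and 20.2 in WT libraries. Trdc, the constant segment of the δ chain, was at 23.5, 25.1 and 37.4 CPM against 9.26, 7.14 and 2.38 CPM (2.19 ± 0.41, adjusted p = 0.19 by edgeR's quasi-likelihood test), and Tcrg-C1, a γ chain constant segment, at 12.9, 23.1 and 19.1 CPM against 9.23, 3.41 and 0.96 CPM (2.01 ± 0.62). Sirt2-/- libraries were above WT libraries in each of these genes. The count of 5 went to 3 without Sirt2-/- replicate 2 or 3.

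Of 19 variable and constant segments of the γ and δ chains, a set made after their values had been seen, 7 had an unadjusted p under 0.05 and all 7 were higher. Among variable segments these were Trdv4 (2.54 ± 0.50), Tcrg-V6 (1.68 ± 0.46) and Trgv2 (1.69 ± 0.56), while Tcrg-V1, Tcrg-V4, Tcrg-V5, Trdv1 and Trdv5 were between 0 and 3.25 CPM in every library. Il23r, the interleukin-23 receptor gene, was at 1.10, 7.29 and 7.78 CPM against 0.28, 1.87 and 0.88 CPM (2.42 ± 0.78), with overlap. The membrane protein genes Tmem176b (1.70 ± 0.27, adjusted p = 0.078 by edgeR's quasi-likelihood test) and Tmem176a (1.75 ± 0.36) were higher without overlap. The share of γδ cells in these libraries was not measured, and its part in the Cd163l1 value was not tested.

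Ccl2, a monocyte-attracting chemokine gene, had counts of 78, 142 and 134 in Sirt2-/- libraries and 0 in all 3 WT libraries. That is at least 118-fold higher against a floor of 3 counts over the WT group. Ccl2 thus passed the filter on low counts through the Sirt2-/- libraries alone, which fixed its direction in advance. The adjusted p was 0.040 in edgeR's quasi-likelihood test. The call was lost without Sirt2-/- replicate 2 (0.35) or 3 (0.13) and without WT replicate 2 (0.068) or 3 (0.12). Several matrix genes had their highest values in Sirt2-/- replicate 2, and none was called in the main edgeR fit. DESeq2 and the edgeR fit with no filter called Postn and Sparc higher, and DESeq2 also Tnc. Of 6 edgeR fits that each left out 1 library, 3 called Tnc, 1 Postn and 0 Sparc. The fit without Sirt2-/- replicate 2 was among those that called Tnc. Tnc, which encodes the matrix protein tenascin C, was at 10.8, 45.1 and 6.44 CPM against 0.13, 0.20 and 0 CPM (adjusted p = 0.078 by edgeR's quasi-likelihood test). Its WT counts of 6, 9 and 0 lay under the filter. Tnc thus also passed through the Sirt2-/- libraries alone, with its direction fixed in advance. Postn had no count in WT libraries, so it too passed the filter through the Sirt2-/- libraries alone. It was at 0.81, 13.1 and 2.18 CPM in Sirt2-/- libraries, at least 226-fold higher by the same floor, and was not called in the main fit. Sparc was at 3.59, 9.59 and 2.34 CPM against 0.26, 0.43 and 0.36 CPM (3.88 ± 0.66), and Fn1 at 5.75, 36.9 and 9.05 CPM against 2.71, 0.50 and 2.98 CPM (3.06 ± 0.80). Col1a1 overlapped, at 1.48, 25.5 and 9.50 CPM against 3.06, 0.36 and 0.60 CPM (3.17 ± 1.03).

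Of 16 stroma and endothelium markers, 10 had enough counts to be tested, and a marker could pass that filter through 1 genotype alone. Of the 10 tested, 9 were higher and 7 had an unadjusted p under 0.05, with a median log2 fold change of 3.06. The summed CPM of all 16 was 143 to 254 in Sirt2-/- and 100 to 121 in WT libraries. Of this, Pecam1 gave 166, 125 and 110 CPM in Sirt2-/- and 88.3, 118 and 115 CPM in WT libraries. The count of 7 went to 3, and the median to 1.499, without Sirt2-/- replicate 2, and the count went to 4 without WT replicate 4. All 16 tested macrophage and monocyte markers were higher, 2 of them at an unadjusted p under 0.05, namely Apoe (1.25 ± 0.36) and the complement gene C1qb (3.10). The summed CPM of the 18 listed macrophage markers was 24.0, 43.6 and 74.4 in Sirt2-/- libraries and at most 24.96 in WT libraries. The defining markers Adgre1 and C1qa were at 0 to 2.72 CPM in the 6 libraries. Of 8 tested melanoma markers 4 were higher, and the 12 listed had summed CPM of 18.5 to 23.8 against 11.9 to 29.1. Of 9 B cell and 9 NK cell markers 7 each were higher. None of the melanoma, B cell and NK cell markers had an unadjusted p under 0.05. Of 7 dendritic cell and class II genes 6 were higher and Zbtb46, the classical dendritic cell factor, was lower (-0.68). The red blood cell gene Hbb-bs (-0.85) and the keratinocyte gene Krt10 (-0.56) were not called, and no neutrophil marker had enough counts to be tested. Cd8a was higher (1.39 ± 0.52), at 10.4, 11.4 and 33.5 CPM against 9.26, 2.89 and 9.03 CPM. The part of these markers in the Ccl2 value was not tested.

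The genes with the smallest p in each direction were also taken, and those not yet described were not called in the main edgeR fit. DESeq2 called Jcad, Pde5a and Kif13b, limma-voom called Jcad, and the edgeR model that included the CD8 libraries called Pde5a. Jcad was at 12.3, 20.4 and 21.8 CPM against 4.74, 4.28 and 6.65 CPM (1.80 ± 0.30, adjusted p = 0.089 by edgeR's quasi-likelihood test). Pde5a, a cyclic GMP phosphodiesterase gene, was at 3.12, 3.68 and 3.79 CPM against 0.41, 0.27 and 0.19 CPM (3.57 ± 0.62). Kif13b, a kinesin gene, was at 78.7, 78.2 and 90.6 CPM against 134, 108 and 144 CPM, the smallest p among lower genes other than Sirt2 (-0.64 ± 0.14, adjusted p = 0.32 by edgeR's quasi-likelihood test). Rgs16, a regulator of G protein signaling, was at 22.4, 28.5 and 33.2 CPM against 52.0, 37.2 and 55.9 CPM (-0.79 ± 0.20). Sema6d (-0.87 ± 0.22), Lad1 (-1.14 ± 0.30), the histone gene Hist1h4f (-0.98 ± 0.26), the phosphatase gene Ptprs (-0.65 ± 0.18) and the small RNA gene Gm25395 (-0.93 ± 0.23) were lower without overlap.

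No gene taken from the study's readouts of TCR signaling was called. The study read LCK, ZAP70, LAT and PLCγ1 as phosphorylated proteins and NFATc2 and c-Jun in the nucleus, whereas the values here are mRNA levels. It also reports higher Nr4a1 transcription in Sirt2-/- than in WT TILs, and its methods measure Nr4a1 by quantitative PCR. The main text of the study does not say which T cells or what stimulation that TIL value came from. It is thus not like for like with the sequenced CD4 libraries. From the RNA of CD4+ and CD8+ TILs it reports enriched pathways downstream of the TCR in Sirt2-/- cells. That pathway analysis was not repeated here. Nr4a1, an immediate early gene used as a reporter of TCR signal, was at 7.72, 13.1 and 14.2 CPM in Sirt2-/- and at least 15.1 CPM in every WT library, lower without overlap (-0.51 ± 0.26). Lck was at 319, 268 and 288 CPM against 315, 298 and 304 CPM (-0.07 ± 0.12). Zap70 was at 78.9, 79.9 and 72.1 CPM against 81.6, 88.8 and 127 CPM (-0.37 ± 0.17), lower without overlap. Without WT replicate 4, the library at 127 CPM, its log2 fold change was -0.14. Lat (-0.09 ± 0.13), Plcg1 (-0.02 ± 0.13), Nfatc2 (-0.16 ± 0.13), Fos (-0.12 ± 0.37), Jun (0.29 ± 0.15) and Tnf (-0.03 ± 0.21) overlapped between the groups. Il2 ranged from 0.09 to 2.45 CPM over the 6 libraries, with overlap (0.44 ± 1.21).

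The TCR gene groups had medians between -0.08 and 0.07, near that of all genes. Of 20 proximal signaling genes 10 were higher, with Txk (above) and Sos1 higher and Zap70 lower at an unadjusted p under 0.05. Of 23 negative regulators 11 were higher, and those at this level were Socs3, a feedback inhibitor of cytokine receptors (0.60 ± 0.16), and the ubiquitin ligase gene Cblb (0.31 ± 0.12). Of 23 immediate early genes 11 were higher and Btg2 alone was at this level. In the ERK feedback group the phosphatase gene Dusp10 was higher, at 40.2, 33.4 and 44.5 CPM against 21.5, 23.6 and 21.4 CPM (0.83 ± 0.17, adjusted p = 0.24 by edgeR's quasi-likelihood test), and Dusp2 lower (-0.43 ± 0.15). Of 16 NF-κB genes 10 were lower, with Bcl3 higher (0.45 ± 0.15) and Nfkbid lower. None of 14 NFAT and calcineurin genes, of 16 activation and costimulation genes or of 19 inhibitory receptor and exhaustion genes had an unadjusted p under 0.05, with medians of -0.05, -0.07 and -0.06. The smallest p in these lists belonged to Nfatc1 (-0.18 ± 0.12), Slc3a2 (-0.27 ± 0.15) and Prdm1 (-0.27 ± 0.19).

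Among effector genes, 8 of 13 cytotoxic granule genes were higher and 3 had an unadjusted p under 0.05. Gzmb, the granzyme B gene, was at 151, 282 and 527 CPM against 199, 147 and 138 CPM (0.99 ± 0.37), with overlap, and its log2 fold change was 0.43 without Sirt2-/- replicate 3. Prf1, the perforin gene, was at 14.6, 13.8 and 23.3 CPM against 10.8, 11.0 and 10.6 CPM (0.67 ± 0.25), without overlap, and Serpinb9, a granzyme B inhibitor gene, at 21.9, 34.4 and 31.9 CPM against 24.1, 17.2 and 14.1 CPM (0.67 ± 0.24). The highest Gzmb and Prf1 values were those of Sirt2-/- replicate 3, which also had the highest Cd8a. Of the cytokine genes, Tnfsf8, the CD30 ligand gene, was higher (0.44 ± 0.18), with overlap. The lists of Th1, Tfh and chemokine receptor genes had medians of 0.08, 0.05 and 0.10. Bcl6, the Tfh factor, was at 16.3 to 38.0 CPM against 11.5 to 19.1 CPM (0.64 ± 0.30). S1pr1, the receptor for egress from tissue, was at 603, 404 and 294 CPM against 260, 339 and 308 CPM (0.52 ± 0.22), and its log2 fold change was 0.21 without Sirt2-/- replicate 1. Bcl2l11, which encodes the death promoter BIM, was higher (0.39 ± 0.15), with overlap.

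In the cell cycle list and in most metabolic groups more members were lower than higher. Of 38 cell cycle genes 34 were lower, with a median of -0.36. Their summed CPM overlapped, at 1729, 2138 and 2521 in Sirt2-/- against 2959, 2079 and 2417 in WT libraries. Of the 38, 1 was wholly lower, where 5.13% of all genes were. An unadjusted p under 0.05 was reached by 3, among them Mcm3, a replication licensing gene (-0.47 ± 0.18). Of 23 glycolysis genes 19 were lower, with a median of -0.18. The 3 at that level were Hk2 (-0.80 ± 0.26), Hk1 (-0.31 ± 0.13) and Pgam1 (-0.63 ± 0.24). Hk2, the inducible hexokinase gene, was at 7.94, 12.2 and 15.8 CPM against 19.7, 18.7 and 24.1 CPM, without overlap. Of 22 integrin and residency genes 17 were lower, with Itgb1 (-0.47 ± 0.18) and Itgb2 (-0.38 ± 0.15) at that level. Of 16 heat shock genes 14 were lower, among them Hsp90ab1, at 1672 to 1876 CPM against 2069 to 2300 CPM (-0.29 ± 0.11). Of the ribosomal protein genes 30 of 42, and of the genes of the mitochondrial genome 10 of 11, were higher, with none at an unadjusted p under 0.05. The TCA cycle, fatty acid oxidation, respiratory chain and cholesterol lists had medians of -0.10, -0.05, -0.09 and 0.01. Acsl1, a fatty acyl-CoA ligase gene, was higher (0.55 ± 0.23), and the respiratory gene Ndufa1, which is X-linked and was measured beside an uneven Xist, was lower (-0.97 ± 0.29). Of genes tied to the enzyme itself, none of the 6 other sirtuins was called, and 9 of 11 histone deacetylase genes were lower with Hdac10 at -0.74 ± 0.31. In a list of tubulin genes with Atat1 and Stmn1, 10 of 14 were lower with none at an unadjusted p under 0.05. Nampt, the rate-limiting enzyme gene of NAD salvage, was at 113, 116 and 110 CPM against 90.8, 72.5 and 67.8 CPM (0.55 ± 0.14, adjusted p = 0.49 by edgeR's quasi-likelihood test), without overlap.

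**Figure D4:**
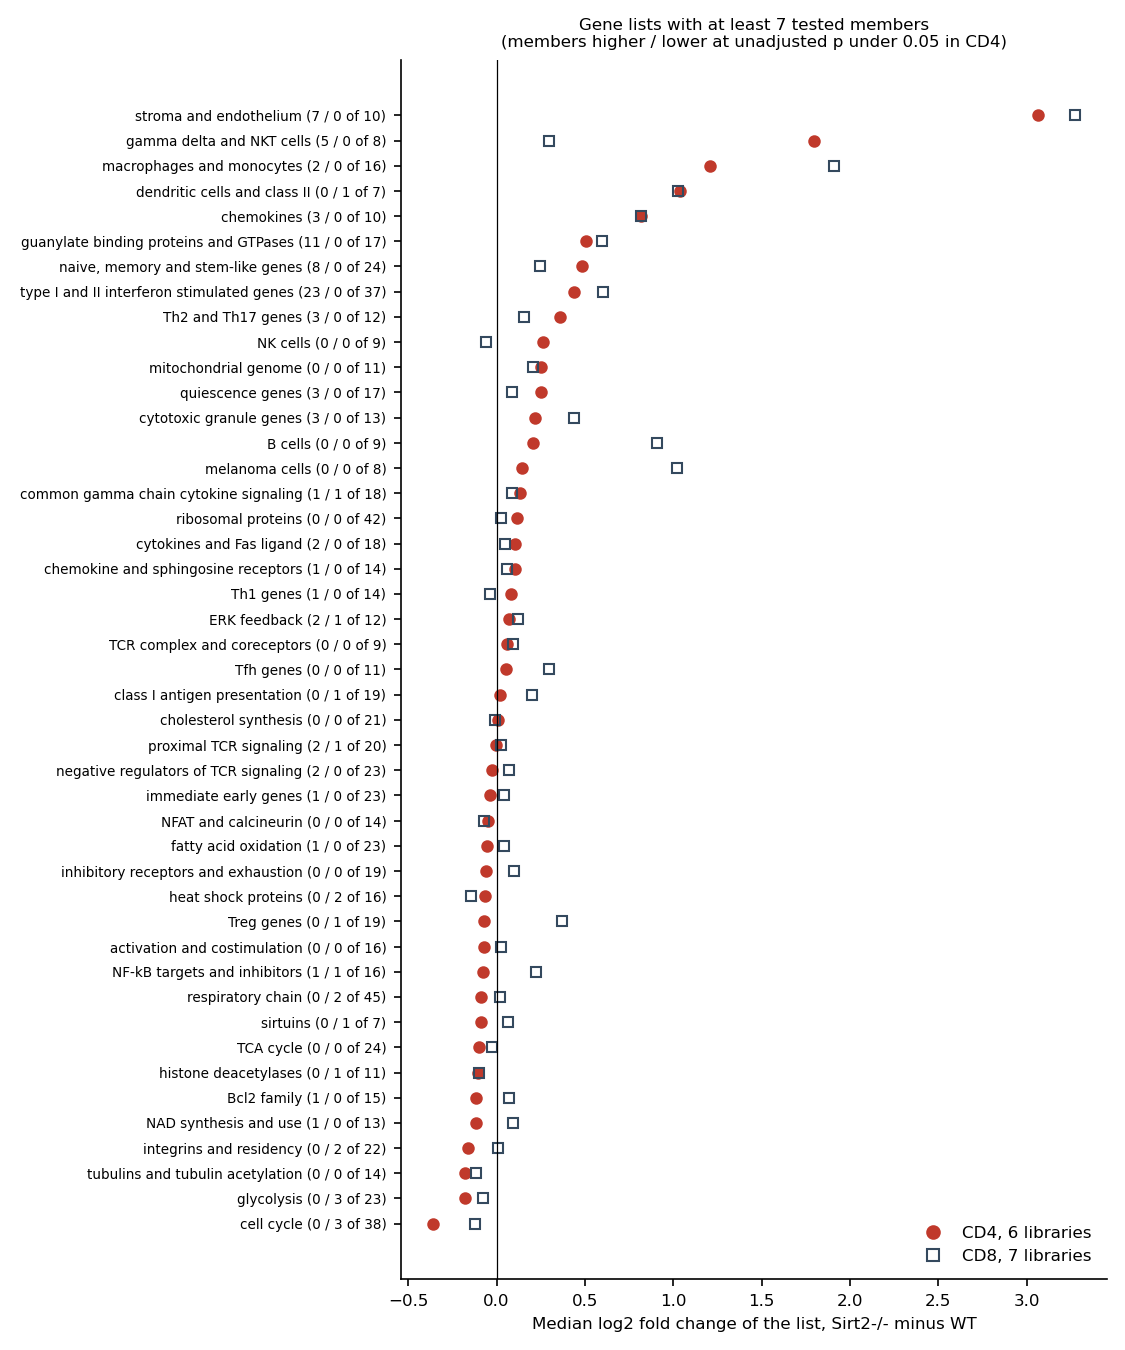
Median log2 fold change (Sirt2-/- minus WT) of the gene lists with at least 7 tested members in CD4 (red circles, 6 libraries) and CD8 TILs (open squares, 7 libraries), with the number of members higher and lower at an unadjusted p under 0.05 in CD4. The medians run from -0.36 for the cell cycle to 3.06 for stroma, and the TCR groups lie near 0.

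The same genes were set beside the CD8+ TILs of the series (4 Sirt2-/- and 3 WT libraries), in which 6 of 15939 genes were called (0.0376%). In CD8 cells Sirt2 (-2.03 ± 0.17) and Fbxo17 (2.83 ± 0.26) changed by close to their CD4 values, and Zfp974 fell (-2.33 ± 0.34). The other 3 genes called there were Maf, Gas7 and Kctd15, none of which was called in CD4 cells. Kctd15 had no count in the Sirt2-/- CD4 libraries and was at 0.31, 0.25 and 1.15 CPM in WT libraries. Igfbp4 (0.51 ± 0.31) and Cd163l1 (0.40 ± 0.52) were not called in CD8 cells. The CD4 value minus the CD8 value was 1.43 ± 0.44 for Igfbp4 and 2.43 ± 0.65 for Cd163l1, with unadjusted p of 0.0067 and 0.0025 in a test of the difference. No gene passed that test after adjustment in edgeR (0 of 17987 genes, 0%), though 667 had an unadjusted p under 0.05 and DESeq2 called 5 higher and 2 lower. That test takes CD4 and CD8 libraries as independent, although Xist was low in WT replicate 2 of both (69.5 and 61.8 CPM of the total). With the replicate number as a block across CD4 and CD8, 2 genes were called higher and 1 lower, and the differences were 1.29 ± 0.22 for Igfbp4 and 2.81 ± 0.44 for Cd163l1, each with an adjusted p of 0.055 in edgeR's quasi-likelihood test. Neither gene passed the threshold in any of these 3 fits. For Trdc the CD8 value was 0.18 and the difference 2.02, and for Pde5a 0.36 and 3.21. The interferon and GTPase lists had medians of 0.60 and 0.60 in CD8 cells, where 14 of the interferon and 12 of the GTPase genes were higher at an unadjusted p under 0.05.

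**Figure D5:**
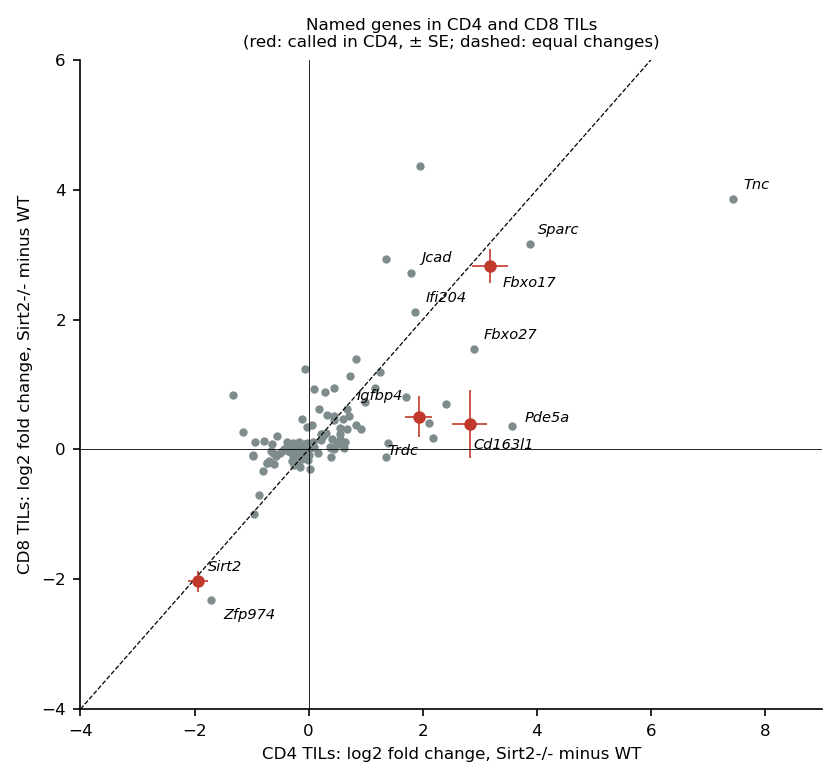
Log2 fold change (Sirt2-/- minus WT) of the named genes in CD4 (horizontal) and CD8 TILs (vertical), with genes called in CD4 in red with their SE and a dashed line of equal changes. Ccl2 is left out because WT CD4 libraries held no count of it. Sirt2 and Fbxo17 lie close to the dashed line, while Igfbp4 and Cd163l1 lie below it.

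As a check, all 8 CD4 libraries were fitted together. None of 15065 genes was called by edgeR (0%), 184 had an unadjusted p under 0.05, DESeq2 called 2 genes higher and limma-voom 2 higher and 1 lower, and the median of all genes moved to -0.11. Sirt2 had a log2 fold change of -2.60, Fbxo17 of 2.13, Cd163l1 of 3.68 and Igfbp4 of 1.82 in this fit, and Ccl2 was not tested there. The medians of the interferon and GTPase lists were 0.59 and 0.72, that of the naive list 0.32 and that of the cell cycle list -0.35.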

How the data were processed

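RNA from TILs of B16F10 tumors was sequenced as strand-specific, rRNA-depleted libraries. The authors deposited raw gene counts, which were not normalized and were made with STAR and HTSeq on mm10 per the submitters' processing notes. Versions and the strand setting of the counting are not given in the sources used here, so overlapping and antisense genes are uncertain. Gene names of all 55450 genes matched GENCODE M21.

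The 6 CD4 libraries with at least 15000 genes with a count were compared in R 4.3.3 with edgeR 4.0.16 (TMM, filterByExpr, robust quasi-likelihood test, two-sided, Benjamini-Hochberg adjustment over all genes tested, threshold 0.05), leaving out 1570 Y-linked genes. The same test was run in all 8 CD4 libraries, in 7 CD8 libraries, and on the difference between CD4 and CD8. Total counts and genes detected were compared by exact permutation. The functions were tested on simulated data. The study gives n = 4 per group, but no label ties a library to 1 mouse, so p-values measure the spread between libraries, which may be technical in part. PCR copies were not marked, so reads are not all separate molecules, and the floor of 3 counts covers counting error only. At the depth of the 6 libraries, 3 counts in a library are below 0.1 CPM.

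The members and lists were chosen with earlier results of these data known. Lists are described by counts and medians without a set test. Named genes were Sirt2, Fbxo17 and Igfbp4, the called genes, the 10 with the smallest p in each direction, of each list the member with the smallest p and that with the highest CPM (of which those with no other reason are given by level or not at all), the readouts of the study, and neighbors of Sirt2 within 1 Mb with an unadjusted p under 0.05. Other named members, the Ifi200, Schlafen and TCR γ and δ segment families were chosen after their values were seen. Promoters are those of RefSeq on GRCm38.p6, the build of the counts. Alternatives were DESeq2 1.42.0, limma-voom (limma 3.58.1) with quality weights, other scalings and filters, other sets of libraries and the replicate number as a block. Some members of the lists are counted with their list but not reported by name here.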

Additional observations from a re-analysis of the deposited data

Results flagged for a closer look

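Among 22 groups of 4 CD4 libraries of 1 genotype, 5 values stood far from the others. In these the gap divided by the range passed the 95% critical value of Dixon's test, which chance alone passes in about 5% of groups. CD8 libraries were not examined in this way. All 5 values belong to the 2 CD4 libraries left out of the comparison for their low number of genes with a count. The total count of WT replicate 1 was 28000949, against up to 44489344 in the other WT CD4 libraries (ratio 0.834). Sirt2-/- replicate 4 had 8169 genes with a count (0.905), the measure by which it was left out, so this value is only a description. The Sirt2 level of that library was 0, against up to 12.3 CPM of the total in the other Sirt2-/- libraries (0.866). WT replicate 1 had 81.1 CPM of the total for Sirt2, against 40.2 in the lowest WT library (0.913), and 20.4 for Fbxo17, against 2.27 in the lowest (0.859). The cause was not tested.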

How the results depend on the processing

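The calls depended on the test and on the libraries. Against 4 genes called higher and 1 lower, DESeq2 called 53 and 2, limma-voom 21 and 1, and the fit with no filter on low counts 92 and 14. A threshold of an adjusted p of 0.1 gave 8 higher. The model over 4 groups with CD8 gave 2 higher, and all 8 CD4 libraries 0 and 0. The 5 genes remained called under DESeq2, no filter, the size factors of DESeq2, the upper quartile, the total count alone, a mean of at least 1 CPM, the fit that was not robust and without TCR and immunoglobulin segment genes. Leaving out 1 library gave 3 to 15 genes higher, with 15 without Sirt2-/- replicate 1 and 9 without WT replicate 4, and 1 lower. Over these fits Igfbp4 ranged from 1.68 to 2.18 and the adjusted p of Ccl2 from 0.028 to 0.35 (edgeR). In all 8 libraries, where none was called, Sirt2 was at -2.60, Fbxo17 at 2.13, Cd163l1 at 3.68 and Igfbp4 at 1.82. In the model with CD8, Cd163l1 (2.82) and Igfbp4 (1.93) were not called, nor was Ccl2 (adjusted p = 0.52 by edgeR, and 0.082 under limma-voom). In all 8 CD4 libraries DESeq2 called 2 higher, and limma-voom 2 higher and 1 lower. In CD8 cells, DESeq2 called 47 higher and 14 lower, and all 8 CD8 libraries gave 0 and 1. For the difference between CD4 and CD8, DESeq2 called 5 and 2. The cause of these changes was not tested.

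The labels do not say whether a replicate number ties a WT to a Sirt2-/- library, though the genotypes are of different mice. The deviations of same-numbered libraries correlated at 0.07 and -0.01. These are the pairs of replicates 2 and 3 alone, too few to exclude a shared batch. Between same-numbered CD4 and CD8 libraries the correlation was 0.01 to 0.21, and Xist was low in WT replicate 2 of both cell types. With the replicate number as a block, the 6 libraries gave 96 higher and 4 lower, and all 8 gave 0 and 0, with a Sirt2 log2 fold change of -3.18, Fbxo17 at 2.67, Cd163l1 at 4.44 and Igfbp4 at 1.88. In the block of 6, Sirt2-/- replicate 1 and WT replicate 4 had no library of the other genotype under their number. The genotype effect of that fit thus rested on replicates 2 and 3 alone, and little was left to measure the spread. Its calls and signs are therefore not a result of all 6 libraries. The block across CD4 and CD8 gave 2 and 1 for the difference. Signs turned under the block of 6 for Fos (0.092) and Ifng (0.068), and under the block of 8 for Serpinb9 (-0.30), Mcm3 (0.15), Hsp90ab1 (0.12), Prdm1 (0.065), Il2 (-0.092), Fos (0.093), Plcg1 (0.16), Col1a1 (-0.036), Cxcl10 (-0.33) and Dusp2 (0.64). The block of 8 left 3 naive, 3 interferon, 2 GTPase, 2 γδ and 0 stroma genes higher at an unadjusted p under 0.05.

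In all 8 libraries the sign turned for Kif13b (0.046), Mcm3 (0.28), Hsp90ab1 (0.28), Prdm1 (0.018), Plcg1 (0.23), Dusp2 (0.81), Nfkbib (-0.013) and Pgam1 (0.48). It also turned under limma-voom for Il2 (-0.56) and Ifng (0.044) and by total count only for Plcg1 (0.029) and Tnf (0.0090). Leaving out 1 library, Lat ranged from -0.17 to 0.0059, Krt10 from -1.34 to 0.21, Il2 from -2.23 to 0.98, Fos from -0.43 to 0.15, Ifng from -0.37 to 0.30, Plcg1 from -0.11 to 0.058 and Tnf from -0.20 to 0.13. The members at an unadjusted p under 0.05, an alternative chosen after seeing the data, were 5 naive, 6 interferon, 7 GTPase, 2 γδ and 0 stroma genes in all 8 libraries. They were 11 interferon, 6 GTPase and 3 stroma genes in the model with CD8, and 5 naive and 2 stroma genes under limma-voom. Without TCR segments, 1 γδ gene was left. Leaving out 1 library gave 4 to 13 naive, 15 to 28 interferon, 3 to 5 γδ and 3 to 9 stroma genes.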
